A study of Caenorhabditis elegans with 245 samples.

Results

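The genes described here are 200 entries of the annotation whose mean transcript level was far higher in wild-type-sired (WT-sired) 8-cell embryos of C. elegans than in 2-cell embryos. They were chosen by level alone, as the 200 of 46725 eligible entries with the highest log2 ratio of mean level in TPM (transcripts per 1000000, a measure per transcript length) at the 8-cell stage over the 2-cell stage, with 1 TPM added to each mean, after 913 entries of the histone, ribosomal, collagen, F-box fbx, BATH, BTB, sdz, T-box, med, end and pes-10 families had been left out by name. The table holds 47638 entries, of which 30992 eligible ones were listed at 0 in every WT-sired embryo. The label of a set activated by the 8-cell stage was checked in embryos that had no part in the choice, and it held there for most members, as given below.

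In animals the first divisions run on RNA and protein that the mother placed in the egg, and transcription of the embryo's own genome starts later, at zygotic genome activation. In C. elegans this happens in the first few cleavages, unevenly between cells, since the germline blastomeres are kept silent while the somatic ones begin to transcribe. Many of the first transcripts come from short genes and gene families of unknown function, beside transcription factors that set the fates of the founder cells.

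The study asked whether a loss of RNase T2 (rnst-2) in fathers, and tRNA-derived RNAs (tDRs) carried by sperm, alter gene expression in the offspring. All animals carried the fog-2(q71) mutation, under which XX animals are females with no sperm of their own and males are fertile. Single-embryo mRNA-seq covered 26 rnst-2-sired 8-cell and 25 rnst-2-sired 2-cell embryos, genotype rnst-2(pen1)/+;fog-2 from deletion fathers, and 20 WT-sired 8-cell and 30 WT-sired 2-cell embryos, genotype fog-2. A second table covered injected embryos, all rnst-2(pen1)/+;fog-2 from deletion fathers, whose mothers had received RNAs antisense to the 5′ tDRs of tRNA Gly-GCC and Glu-CTC together with a his-72::gfp RNA (anti-tDR, 20 8-cell and 23 2-cell embryos) or the his-72::gfp RNA alone (GFP, 18 8-cell and 26 2-cell embryos). Adult F1 offspring were sequenced as 3 females and 3 males listed as rnst-2(pen4)/+;fog-2, and as 3 females and 3 males labelled wt_F1 and fog-2. The pen4 allele is a mutation of the catalytic site made in a tagged gfp::3xflag::rnst-2 gene. The study's figure legend names the fathers of the rnst-2-sired adults as deletion mutants instead, so the allele is not settled here. A lower header line of the table names the wt_F1 libraries as offspring of heterozygous catalytic mutants. Small RNAs of 18 to 40 nt came from WT sperm and WT whole males (fog-2, 4 each), from males homozygous for the deletion (rnst-2(pen1);fog-2, 6) or carrying it over the balancer tmC16 (5), from males homozygous for the catalytic mutation (rnst-2(pen4);fog-2, 6) or carrying it over tmC16 (5), from sperm of catalytic homozygotes (4) and from deletion homozygous and heterozygous virgin females (4 each). Each embryo library is 1 whole embryo and the adult libraries are whole animals, so that fewer cells with a transcript and less transcript per cell cannot be told apart, and p-values measure the spread between embryos. By the study's methods, embryos of every group were collected on several days, several of each group and stage per day, and the labels do not give the day of an embryo, so it could not be used in the tests.

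Several libraries stood apart and touch the values below. Of the 23 anti-tDR 2-cell embryos, 9 had a summed level of at least 100 TPM over 9 early zygotic marker genes or of at least 5000 TPM over the members, limits that were set after seeing the data. Their marker sums ran from 105.5 to 530.8 TPM, against 286.2 to 2050.1 TPM in anti-tDR 8-cell embryos. Of the 26 GFP 2-cell embryos, 1 had a marker sum of 100.9 TPM and 1 had 26160 TPM over the members. Some of these embryos lie just past the limits, since 2-cell embryos within them had marker sums of up to 91.0 TPM in the WT-sired, 54.4 TPM in the GFP group and 13.5 TPM in the rnst-2-sired group. GFP 8-cell embryo 11 had 3162 entries of at least 1 TPM and marker genes at only 96.8 TPM in sum. Counts in the injected embryos are given with and without these 12 embryos, and whether the embryos were staged late or mixed was not tested.

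By annotation (assembly WBcel235, which placed 199 of the 200), the members were 137 protein-coding genes, 28 pseudogenes, 20 ncRNAs, 9 snoRNAs, 3 snRNAs and 2 lincRNAs. They lay on chromosome I (31), II (45), III (24), IV (37), V (43) and X (19). The protein products leaned to small families. F-box proteins, which hold substrates for SCF ubiquitin ligases, made up 23 of 137 members, against 1.05% of all protein-coding genes, although fbx-named genes had been left out. Skp1-related proteins, the adaptors that join F-box proteins to the ligase, made up 4 (0.111% of all protein-coding genes). A further 6 were CCCH zinc-finger proteins, a class of RNA-binding proteins (0.117% of all). Uncharacterized products made up 22 (9.12% of all). Another 4 were annotated as nematode-specific peptides of group A (nspa, 0.058% of all) and 2 as Delta-like Notch ligands (dsl-1 and dsl-2, 0.042% of all). Serpentine or G protein-coupled receptors made up 6 of 137, against 5.91% of all protein-coding genes, so no lean is read for them.

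The coding members were short and had few introns. Their median spliced length was 822 bases, against 1154 bases for all 19973 protein-coding genes. A median of 2 exons per member compares with 5 for all protein-coding genes, and 33 members (24.1%) had a single exon, against 4.72% of all. Of the 199 placed members, 80 lay within 10000 bases of another, in 35 groups. These groups include 6 pairs of members that overlap, and the share for other entries was not computed. The largest groups held 4 members each, among them skr-8, skr-9, skr-12 and skr-13 on chromosome IV and nspa-1, nspa-3, nspa-6 and nspa-7 on chromosome V. Reads from near-identical copies cannot be separated well: nspa-6 and nspa-7 had identical values in the embryo libraries, as did nspa-1 and nspa-3. T07D3.10 and T07D3.11 also had identical values there, as did Y116F11B.20 and Y116F11B.23. Each of these last pairs is the same stretch annotated on both strands. A further limit is overlap with other genes, since 42 members are overlapped by a gene on the other strand and 28 by one on the same strand, and the embryo libraries came from a protocol that does not mark strand. The kit of the adult libraries marks strand, and whether the counting used it is not given in the sources used here.

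The 200 bases upstream of the annotated start were read from the assembly for the 137 coding members. The windows of 6 of them are printed here because the results return to these genes: C08F1.6, of the 10 highest by the rule, AH10.2 and Y50E8A.11, whose stage change was among the clearest in the embryos that had no part in the choice, skr-8 for the Skp1 group, and nspa-1 and nspa-6, which stand apart from the other members in adults. The windows are chrII:1788188-1788387 on the minus strand, chrV:14156568-14156767 on the plus strand, chrV:14781230-14781429 on the plus strand, chrIV:17165835-17166034 on the minus strand, chrV:14886908-14887107 on the minus strand and chrV:14889512-14889711 on the minus strand (WBcel235), in the order of the lines. Capitals mark matches, on either strand, to motifs searched in all windows: TATAAA for the core promoter box of that name, GATAAG for zinc-finger factors of the GATA class, AGGTGT for T-box factors and CAGCTG for factors of the bHLH class such as the product of cnd-1.
C08F1.6: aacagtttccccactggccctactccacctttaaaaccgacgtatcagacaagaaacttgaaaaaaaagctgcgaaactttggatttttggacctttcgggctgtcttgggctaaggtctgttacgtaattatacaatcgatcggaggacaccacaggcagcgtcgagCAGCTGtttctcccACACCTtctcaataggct
AH10.2: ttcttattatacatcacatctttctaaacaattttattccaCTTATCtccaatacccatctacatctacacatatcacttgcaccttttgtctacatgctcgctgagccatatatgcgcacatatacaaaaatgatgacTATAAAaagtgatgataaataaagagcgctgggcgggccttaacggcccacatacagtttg
Y50E8A.11: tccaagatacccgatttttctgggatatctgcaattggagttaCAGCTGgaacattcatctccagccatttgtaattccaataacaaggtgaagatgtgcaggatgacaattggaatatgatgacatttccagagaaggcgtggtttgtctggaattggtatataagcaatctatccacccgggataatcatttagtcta
skr-8: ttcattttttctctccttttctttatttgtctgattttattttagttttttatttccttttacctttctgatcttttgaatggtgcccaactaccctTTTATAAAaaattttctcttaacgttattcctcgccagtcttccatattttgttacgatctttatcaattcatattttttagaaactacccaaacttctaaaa
nspa-1: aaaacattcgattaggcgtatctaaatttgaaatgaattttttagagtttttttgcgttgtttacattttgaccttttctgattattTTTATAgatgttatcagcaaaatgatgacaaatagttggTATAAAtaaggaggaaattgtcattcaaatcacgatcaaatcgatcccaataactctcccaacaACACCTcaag
nspa-6: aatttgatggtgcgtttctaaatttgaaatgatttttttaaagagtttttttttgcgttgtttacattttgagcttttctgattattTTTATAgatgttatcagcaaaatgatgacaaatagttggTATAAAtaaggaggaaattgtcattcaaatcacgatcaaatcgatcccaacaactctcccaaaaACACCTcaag

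The distance before the gene start is counted to the first base of a match. In C08F1.6 the letters ACACCT, the reverse of AGGTGT, stand 18 bases before the start and CAGCTG stands 32 bases before it. AH10.2 has TATAAA at 61 bases and CTTATC, the reverse of GATAAG, at 159 bases. In skr-8 the capitals are a TATAAA and its reverse TTTATA that overlap, at 101 and 103 bases. The nspa windows fell into 2 identical pairs, nspa-1 with nspa-3 and nspa-6 with nspa-7 (200 of 200 bases each), with 163 of 200 positions identical between the pairs, and all 4 windows hold ACACCT 10 bases before the start. Over the 137 windows, AGGTGT occurred in 17 of 137, against 6.04% of the windows of all 19973 protein-coding genes. These 17 include the 4 nspa windows, which are near-copies and not separate cases. CAGCTG occurred in 10 (7.30%), against 3.43%. TATAAA was found in 44 (32.1%), against 30.4% of all, and GATAAG in 13 (9.49%), against 12.6% of all. CTTTGA, a site for TCF factors, was in 17 windows, against 14.5% of all, and TTTCAG, the end of worm introns where leaders are also spliced on, in 41 (29.9%), against 36.8%. These shares are descriptions of letters in a window.

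In WT-sired embryos, whose values chose the members, the 8-cell means ran from 16.5 to 1855 TPM (median 52.2) and the 2-cell means from 0 to 34.9 TPM (median 0.14). Of the 200, 64 were at 0 in all 30 WT-sired 2-cell embryos, and 88 were above 0 in all 20 WT-sired 8-cell embryos. The choice was not equally firm for all of them. For 35 members the WT-sired 8-cell median was 0, and for 21 a single embryo held over 50% of the summed TPM. The last 5 ranks inside the rule were yrn-1 at a log2 ratio of 4.15, smy-8 at 4.14, nspa-6 and nspa-7 at 4.13 each and Y47D3A.13 at 4.13. Just outside it stood C54H2.10 at 4.12, H08J11.4 and Y75B12B.16 at 4.11 each, C27H5.11 at 4.10 and W04A8.4 at 4.09.

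**Figure D1:**
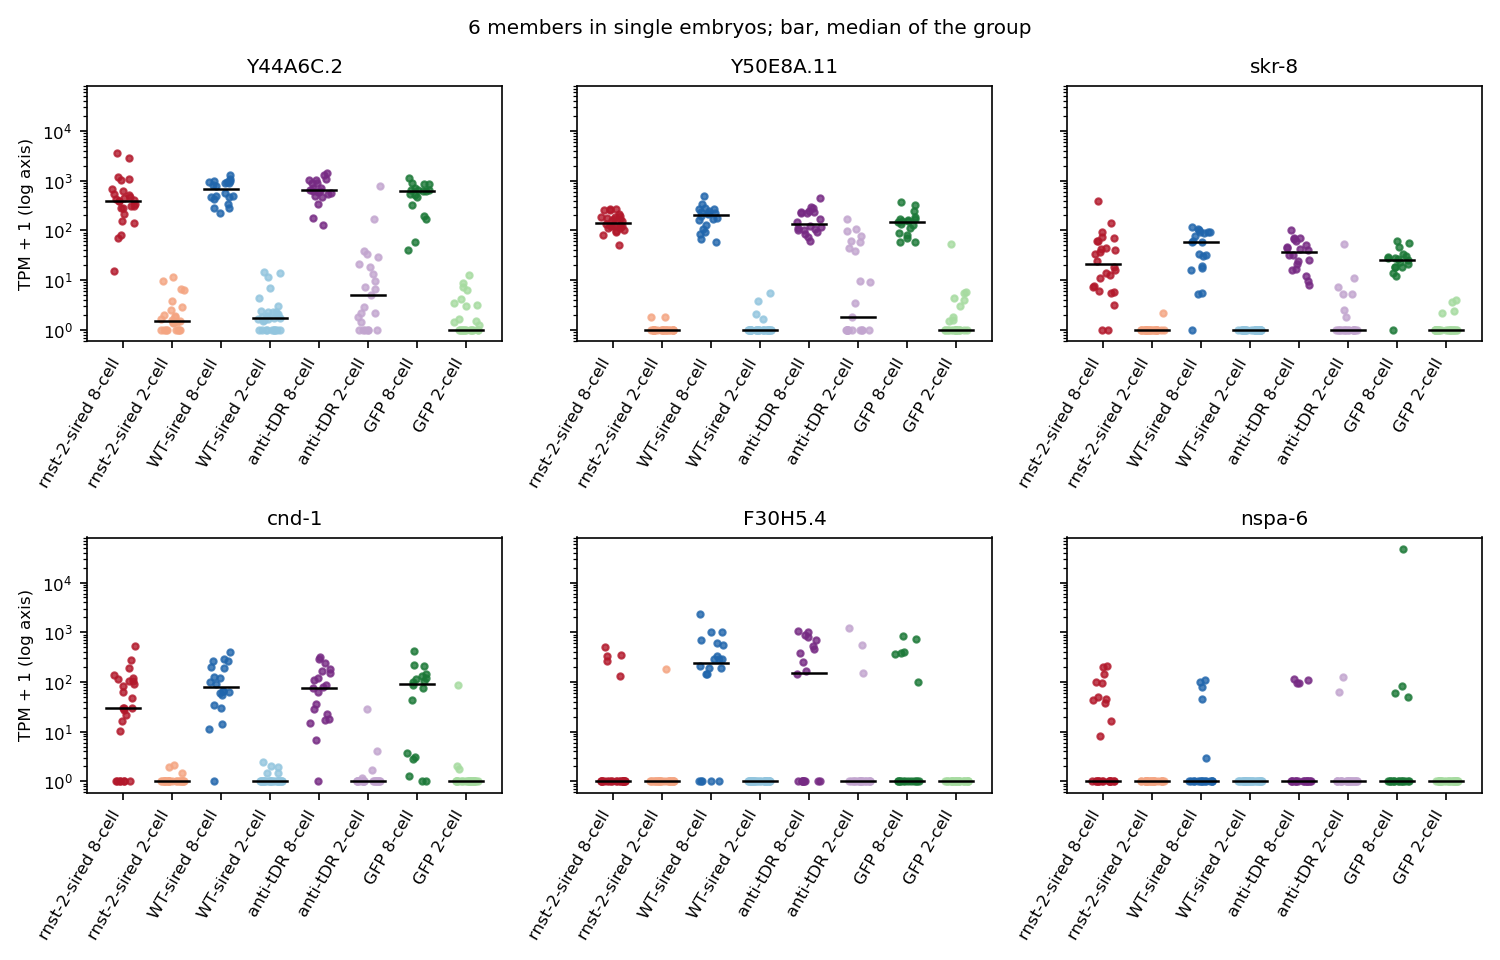
Levels of 6 members in single embryos, as TPM + 1 on a log axis, for the 8 embryo groups. Each point is 1 embryo and each bar a group median. Y44A6C.2, Y50E8A.11, skr-8 and cnd-1 have higher medians in every 8-cell group than in its 2-cell group, while F30H5.4 and nspa-6 are at 0 in many 8-cell embryos.

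The first question was whether the members were also higher at the 8-cell stage in embryos that had no part in choosing them. They were, for most of the set. In rnst-2-sired embryos 168 of the 182 members tested were higher at the 8-cell than at the 2-cell stage and the other 14 were not called, while 9.88% of all 6763 entries tested were called higher (limma on log2(TPM + 1), Benjamini-Hochberg adjusted p under 0.05). The median difference of the tested members was 3.82 on the log2 scale, against 0.10 over all entries tested. In GFP embryos 162 of 173 were higher and 11 were not called (7.93% of all entries higher), with a median difference of 3.91 against −0.16 over all. In anti-tDR embryos 163 of 185 were higher and 22 were not called (8.64% of all entries higher), with a median of 3.85 against 0.25 over all. A member could enter these tests through its 8-cell level alone, since the filter kept entries with a mean of at least 5 TPM over the embryos of both stages, so the counts describe the tested members and not all 200. Without the embryos that stood apart the counts were 163 of 167 in GFP embryos (14.6% of all entries higher) and 162 of 183 in anti-tDR embryos (10.1% of all). In all, 152 members were called higher in each of the 3 tests and 26 in none, counting members that did not reach the filter.

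**Figure D2:**
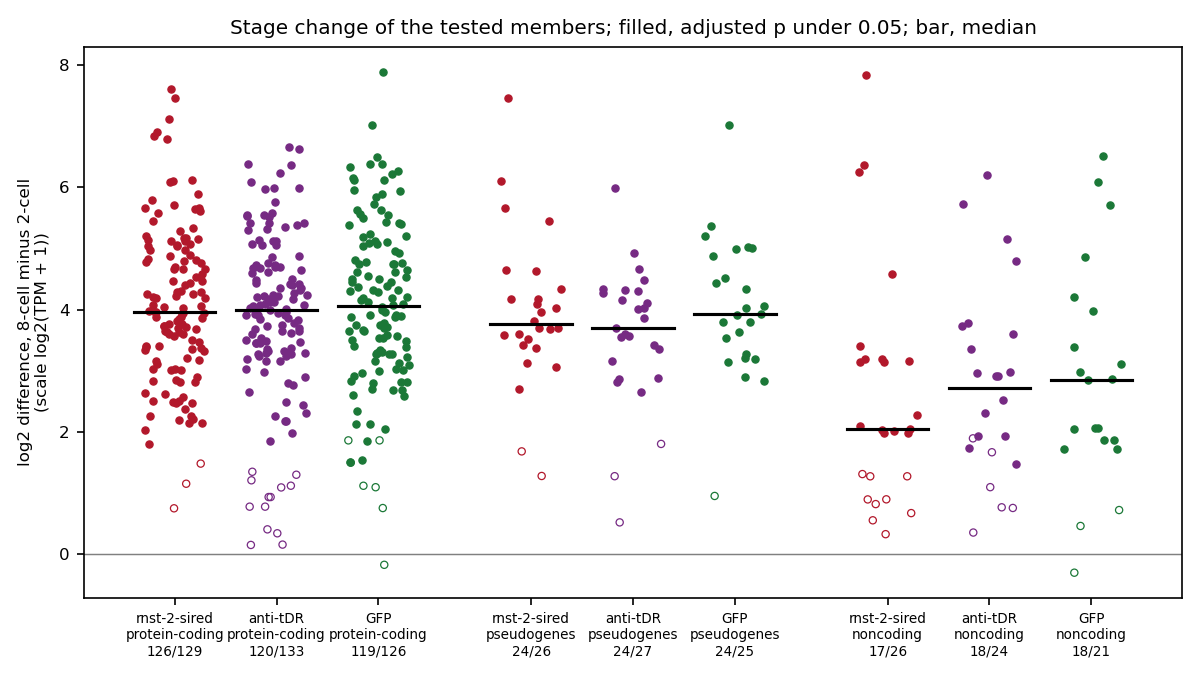
Stage change of the members as the log2 difference in TPM + 1, 8-cell over 2-cell, in rnst-2-sired, anti-tDR and GFP embryos, for protein-coding members, pseudogenes and noncoding RNA genes. Filled points passed the test at an adjusted p under 0.05, bars are medians, and the fractions give members called over members tested. The medians of the noncoding genes, 2.04, 2.71 and 2.85, lie below those of the coding genes, 3.96, 3.99 and 4.06.

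Y44A6C.2 (chrV:20722234-20723789), which encodes an F-box-associated protein, was the clearest of the highly ranked members. All its 1556 bases lie inside ipla-3 on the other strand, so reads of both genes cannot be fully separated in these libraries. Y44A6C.2 had 14.03 to 3578 TPM (median 395.2) in rnst-2-sired 8-cell embryos, against 0 to 10.4 TPM (median 0.48) in rnst-2-sired 2-cell embryos. The stages did not overlap, as all 26 8-cell embryos exceeded every 2-cell embryo, and the difference was 7.61 ± 0.38 on the log2 scale (SE, limma adjusted p = 1.692e-24). In GFP embryos the gene had 39.5 to 1112 TPM (median 609.3) at the 8-cell stage, against 0 to 11.9 TPM (median 0) at the 2-cell stage, again without overlap (7.89 ± 0.38, limma adjusted p = 2.894e-22). Anti-tDR embryos had 126.3 to 1432 TPM (median 637.3) at the 8-cell stage and 0 to 790.1 TPM (median 4.00) at the 2-cell stage. There the groups overlapped, with 7 of 20 8-cell embryos above every 2-cell embryo (6.64 ± 0.58, limma adjusted p = 3.348e-13). Without the 9 that stood apart the highest 2-cell value was 12.1 TPM and the difference 8.05.

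Non-overlapping stages were uncommon. They were seen for 16 of the members tested in rnst-2-sired embryos, where 0.296% of all entries showed this, for 9 in GFP embryos (0.184% of all) and for 0 in anti-tDR embryos (0.0304% of all), the group with 9 of 23 2-cell embryos that stood apart. Without the embryos that stood apart there were 50 such members in GFP embryos (1.33% of all entries) and 53 in anti-tDR embryos (1.48% of all), where these embryos had been left out for their high level of the markers or of the members themselves, so that nothing is read from that change. The smallest adjusted p in rnst-2-sired embryos belonged to Y50E8A.11, which had 49.5 to 273.4 TPM (median 142.6) at the 8-cell stage, against 0 to 0.80 TPM (median 0) at the 2-cell stage. No 2-cell embryo came near the 8-cell range, and the difference was 7.12 ± 0.19 (SE, limma adjusted p = 3.704e-38). AH10.2, annotated as a transmembrane protein, had 60.3 to 301.9 TPM (median 124.2) at the 8-cell stage and 0 to 2.74 TPM (median 0) at the 2-cell stage, a difference of 6.91 ± 0.21 (limma adjusted p = 1.573e-35). In GFP embryos, the F-box gene Y106G6H.9 had 6.69 to 279.3 TPM (median 107.8) at the 8-cell stage and 0 to 1.90 TPM (median 0) at the 2-cell stage (6.15 ± 0.30, limma adjusted p = 2.894e-22). In anti-tDR embryos, F46C3.7 had the smallest adjusted p, with 32.3 to 310.0 TPM (median 150.7) at the 8-cell stage and 0 to 56.6 TPM (median 0) at the 2-cell stage. Of its 20 8-cell embryos 18 exceeded every 2-cell embryo (6.37 ± 0.48, limma adjusted p = 5.028e-15), and the difference was 7.11 without the 9 that stood apart.

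Of the 23 F-box members, 21 were called higher in all 3 tests. Every F-box member that reached the filter was called higher, 22 in rnst-2-sired, 22 in anti-tDR and 21 in GFP embryos. F37D6.4 did not reach the filter in any of the 3 tests. The median log2 differences were 4.02 in rnst-2-sired, 3.99 in anti-tDR and 4.29 in GFP embryos. The Skp1-related genes skr-8, skr-9, skr-12 and skr-13 passed in all 3 tests. skr-8 (chrIV:17165250-17165834) had 0 to 383.5 TPM (median 20.5) in rnst-2-sired 8-cell embryos and 0 to 1.22 TPM (median 0) in rnst-2-sired 2-cell embryos. The stages overlapped only through 2 8-cell embryos at 0, and the difference was 4.25 ± 0.42 (SE, limma adjusted p = 1.49e-12). Among the other entries of the list of ubiquitin ligase parts, 4 of 57 were higher and 7 lower in rnst-2-sired embryos, 4 higher and 2 lower of 57 in anti-tDR embryos, and 7 higher and 8 lower of 58 in GFP embryos.

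Transcription factors among the members include cnd-1, a NeuroD-type and ngn-1, a neurogenin-type proneural factor, ceh-51, a homeobox gene of the MS lineage that makes mesoderm, the forkhead gene fkh-5, hmg-11 with an HMG motif, and unc-30, a Pitx-type homeobox gene known for GABA neurons. Of these 6, 4 were higher in all 3 tests. cnd-1 had 0 to 517.7 TPM (median 29.2) in rnst-2-sired 8-cell embryos and 0 to 1.14 TPM (median 0) in rnst-2-sired 2-cell embryos. It was above every 2-cell embryo in 19 of 26 and at 0 in the other 7 (4.31 ± 0.58, SE, limma adjusted p = 1.939e-08). ceh-51 was lower in level, with 0 to 221.1 TPM (median 7.72) at the 8-cell stage and 0 to 4.21 TPM (median 0) at the 2-cell stage of rnst-2-sired embryos (2.51 ± 0.47, limma adjusted p = 2.236e-05). ceh-51 lies wholly inside emb-4 on the other strand, and hmg-11 wholly inside clec-140 on the same strand. Their reads cannot be fully separated from those of emb-4 and clec-140. fkh-5 differed by 3.72 in rnst-2-sired, 4.07 in anti-tDR and 4.10 in GFP embryos. unc-30 did not reach the filter in any of the 3 tests, so its place among the members rests on WT-sired embryos. Of the other transcription factors on the list, 20 of 167 were higher and 12 lower in rnst-2-sired embryos, 17 higher and 8 lower of 168 in anti-tDR embryos, and 10 higher and 28 lower of 165 in GFP embryos.

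All 6 CCCH zinc-finger members were higher in the 3 tests, with median differences of 5.05 in rnst-2-sired, 4.16 in anti-tDR and 4.40 in GFP embryos. ccch-2 had 5.92 to 308.4 TPM (median 28.4) in rnst-2-sired 8-cell embryos, against 0 to 1.48 TPM (median 0) in rnst-2-sired 2-cell embryos, without overlap (5.03 ± 0.29, SE, limma adjusted p = 7.144e-22). Among the other RNA-binding genes on the list the calls ran mostly the other way, with 4 of 61 higher and 11 lower in rnst-2-sired embryos, 3 higher and 6 lower of 60 in anti-tDR embryos, and 1 higher and 26 lower of 61 in GFP embryos. The Notch ligand genes dsl-1 and dsl-2 were called higher in all 3 tests. dsl-1, of the Delta and Serrate class, had 0 to 1034 TPM (median 59.2) in rnst-2-sired 8-cell embryos and 0 to 8.26 TPM (median 0) in rnst-2-sired 2-cell embryos (4.76 ± 0.66, limma adjusted p = 2.947e-08), and its neighbour dsl-2 differed by 4.19. The dsl genes were named here for their known role, after their values had been seen. epg-2, which acts in the autophagic removal of P granules from somatic cells, differed by 3.56 in rnst-2-sired, 3.65 in anti-tDR and 3.27 in GFP embryos. It lies wholly inside tpxl-1 on the other strand, so reads of both genes cannot be fully separated. The very early transcript genes vet-1 and vet-6 were higher in all 3 tests, with vet-6 at 3.60, 3.74 and 3.59 in the same order of groups.

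Of the families that the choice had left out by name, a list of 59 early zygotic entries moved in the same direction. Of its tested entries 35 of 38 were higher in rnst-2-sired, 36 of 39 in anti-tDR and 31 of 34 in GFP embryos, against 0, 1 and 1 lower. The other entries left out by name were not described here. A list of maternal and oocyte markers went the other way, with 0 higher and 7 lower of 12 in rnst-2-sired embryos, 0 and 4 in anti-tDR embryos and 0 and 10 in GFP embryos.

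Of the 34 members annotated as noncoding RNA, 13 were higher in all 3 tests and 14 in none, counting those that did not reach the filter. Of those tested, 17 of 26 were higher in rnst-2-sired, 18 of 24 in anti-tDR and 18 of 21 in GFP embryos. F59C12.4 (chrX:16602473-16602622), a short uncharacterized coding gene and the member with the highest WT-sired level, may serve as the contrast. It had 111.6 to 11008 TPM (median 1127) in rnst-2-sired 8-cell embryos and 0 to 102.3 TPM (median 14.5) in rnst-2-sired 2-cell embryos, without overlap (6.80 ± 0.56, SE, limma adjusted p = 3.382e-15). The snoRNA F30H5.4 (chrIII:502804-502889), first by the rule, was above 0 in 5 of 26 rnst-2-sired 8-cell embryos (highest 502.7 TPM) and in 1 of 25 rnst-2-sired 2-cell embryos. Its difference there, 1.27, did not pass (limma adjusted p = 0.2007). It passed in anti-tDR embryos, where 11 of 20 8-cell and 3 of 23 2-cell embryos had any (3.73 ± 1.09, limma adjusted p = 0.01239; without the embryos doubted for rRNA share or detected entries 3.26, adjusted p = 0.0668), and in GFP embryos, with 6 of 18 8-cell and 0 of 26 2-cell embryos (2.87 ± 0.78, limma adjusted p = 0.003647). Most snoRNAs lack poly(A) tails, and the libraries were primed on poly(A), so that these values count only what that priming caught. linc-6 (chrX:1982710-1982883) was more regular, with 0 to 1994 TPM (median 156.8) at the 8-cell stage and 0 to 45.4 TPM (median 0) at the 2-cell stage of rnst-2-sired embryos (6.36 ± 0.59, limma adjusted p = 1.36e-13). It shares 40 bases with F52D2.14 on the same strand and lies inside a pseudogene of the other strand, so their reads cannot be fully separated.

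The nspa genes, which encode nematode-specific peptides, were at 0 in many 8-cell embryos. nspa-6, with the same values as nspa-7, was above 0 in 11 of 26 rnst-2-sired 8-cell embryos (highest 203.7 TPM) and in 0 of 25 rnst-2-sired 2-cell embryos (2.48 ± 0.60, SE, limma adjusted p = 0.001061). The difference was 0.77 in anti-tDR embryos (limma adjusted p = 0.4889) and 1.86 in GFP embryos (adjusted p = 0.06186). GFP 8-cell embryo 11, which stood apart, listed 47056 TPM for each of these 2 genes, which did not reach the filter in GFP embryos without it and the 2-cell embryos that stood apart. Without its own 9 such embryos the anti-tDR difference was 1.34 (adjusted p = 0.2023).

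rnst-2-sired and WT-sired embryos were set side by side, as a description, because the WT-sired values chose the members. At the 8-cell stage the summed TPM of the 200 members was 3480 to 57234 (median 16817) in rnst-2-sired and 8994 to 46278 (median 23574) in WT-sired embryos, and the ranges overlapped. Of 200 members 0 were called higher and 1 lower, F30H5.4, while 0.0431% of all entries were called lower. F30H5.4 was above 0 in 5 of 26 rnst-2-sired and in 15 of 20 WT-sired 8-cell embryos (medians 0 and 244.8 TPM), and its call was lost with a pseudocount of 0.1, without a filter and without the embryos doubted for rRNA share or detected entries (adjusted p 0.0871 to 0.182). The median difference of the members, −0.73 against −0.17 for all entries, is given without a reading, since WT-sired 8-cell values chose the members. At the 2-cell stage 19 members could be tested and 0 were called (0.0% of all entries, and 0 members at an unadjusted p under 0.05).

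Injection of the antisense RNAs gave a comparison in which neither group had a part in the choice. At the 8-cell stage the summed TPM of the members was 8289 to 44844 (median 24556) in anti-tDR and 5682 to 95255 (median 23302) in GFP embryos, where the highest without embryo 11 was 31763. Of 189 members tested, 0 were called (0.0% of all 6588 entries) by limma and 0 by the rule of the study's methods, a fold of over 2 with p of at most 0.01 (0.349% of all entries). At an unadjusted p under 0.05 stood 15 members, and 3.63% of all entries. The median difference of the members was 0.35 on the log2 scale, against −0.05 over all entries, and 146 of the 189 (77.2%) were above 0, against 43.8% of all. Without GFP embryo 11 the members' median was 0.11, against −0.20 over all, and 7 members had p under 0.05, with 0 called.

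**Figure D3:**
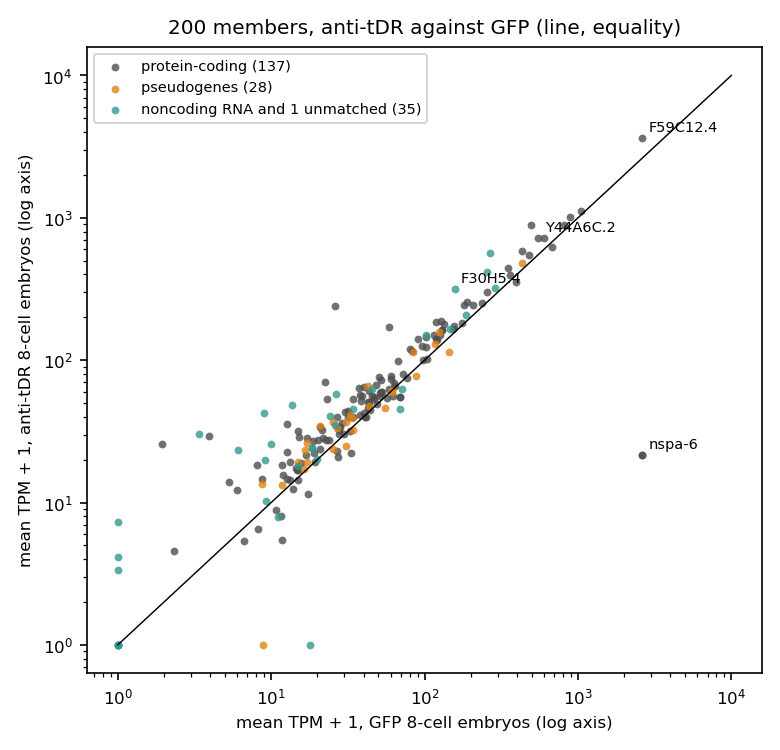
Mean level of each of the 200 members at the 8-cell stage in anti-tDR embryos (vertical axis) and GFP embryos (horizontal axis), as TPM + 1 on log axes with the line of equality. Most points lie along the line, and nspa-6 and nspa-7 lie far towards GFP, where 1 embryo had 47056 TPM.

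The values of single members overlapped between the injections. cnd-1 had 0 to 310.3 TPM (median 75.4) in anti-tDR and 0 to 418.1 TPM (median 91.8) in GFP 8-cell embryos, a difference of 0.79 ± 0.77 (SE, limma adjusted p = 1.0). For dsl-1 the values were 22.9 to 443.3 TPM (median 185.2) in anti-tDR and 0 to 336.0 TPM (median 88.0) in GFP embryos, which overlapped widely (1.22 ± 0.55, adjusted p = 1.0). Y44A6C.2 had 126.3 to 1432 TPM in anti-tDR and 39.5 to 1112 TPM in GFP embryos. At the 2-cell stage 71 members passed the filter and 0 were called (0.318% of all entries), with 18 at an unadjusted p under 0.05 by limma, where 30.6% of all entries were. The rule of the methods called 6 members higher and 0 lower (0.191% and 8.07% of all entries). Without the 11 embryos that stood apart only 22 passed the filter, 0 were called and 0 had p under 0.05, and the median difference of those 22 was −0.18, against −0.45 over all entries. With all embryos the median of the 71 was 0.59, against −0.52 over all. Members could pass the filter through the 11 embryos that stood apart, 9 of them anti-tDR, so nothing is read from that median or from the 6 calls. The change with stage was also compared between the injections, and 0 of 180 members were called (0.0% of all entries), with 6 at an unadjusted p under 0.05 (8.47% of all entries) and 0 by the rule of the methods (1.29% of all). Without the embryos that stood apart 0 of 180 were called and 4 had p under 0.05, and the median difference was 0.16, against 0.20 over all, where it was −0.03 against 0.39 with them.

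In adults most members were low in both sexes. Of the 200, 65 (32.5%) had a mean of at least 1 TPM in wt_F1 females, against 21.7% of all entries, and 32 in wt_F1 males, against 23.8% of all entries. Y50E8A.11, AH10.2 and cnd-1 were at 0 in all 6 wt_F1 libraries. Between the sexes 33 members passed the filter, 7 were higher and 12 lower in females (57.7% and 25.3% of all entries), with a median difference of 0.16 against 0.88 over all. Median-of-ratios scaling moves the median of all entries to −0.06, and with it 2 members were higher and 17 lower in females (34.5% and 39.9% of all entries).

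**Figure D4:**
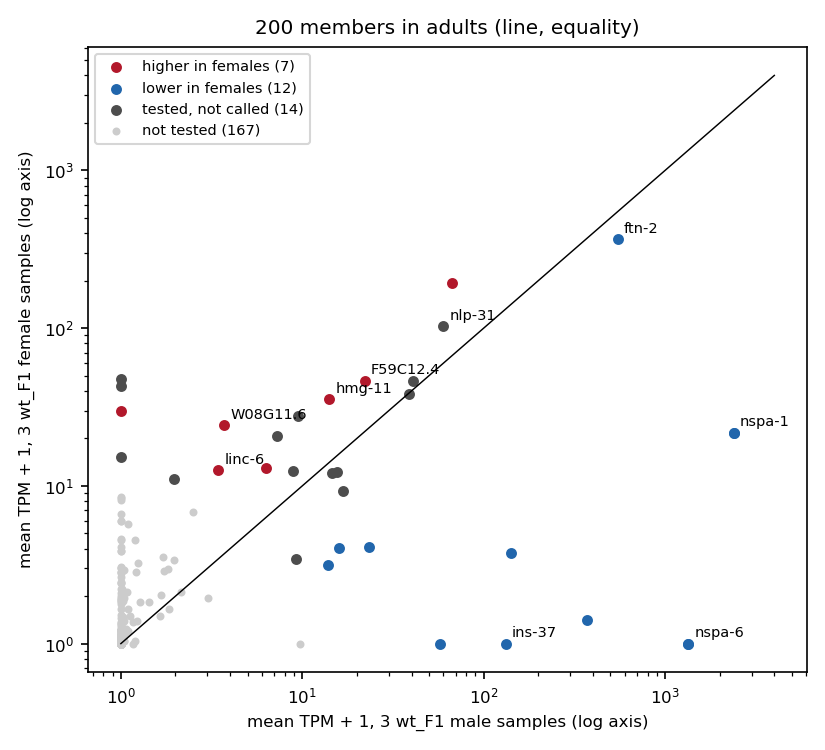
Mean level of each member in wt_F1 adult females (vertical axis) and males (horizontal axis), as TPM + 1 on log axes (n = 3 each). The nspa genes, Y47D3A.13, C01G12.3 and ins-37 lie far towards males, and most other members lie near the origin.

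The members that were lower in females were led by genes at or near 0 there. ins-37, of the insulin-like peptides, was listed at 0 in all 3 wt_F1 females and had 129.4, 143.8 and 120.6 TPM in wt_F1 males. nspa-1, with the same values as nspa-3, had 47.2, 15.1 and 0 TPM in females and 3495, 2344 and 1334 TPM in males (−7.92 ± 1.32, SE, limma adjusted p = 9.926e-04). nspa-6 was listed at 0 in the females and had 1423, 1732 and 868.5 TPM in the males. None of these groups overlapped. Y47D3A.13 had 0.32, 0.65 and 0.26 TPM in females and 425.5, 381.2 and 306.4 TPM in males (−8.04 ± 0.18, limma adjusted p = 2.839e-08), and C01G12.3 had 4.47, 1.96 and 1.85 TPM in females and 159.9, 140.9 and 121.1 TPM in males (−5.29 ± 0.27, adjusted p = 1.937e-06). Beside them, 86 sperm markers summed to 58.2 to 74.5 TPM in wt_F1 females and 221834 to 232395 TPM in wt_F1 males, and their part in these differences was not tested. ftn-2, a ferritin for iron storage and the highest member in females, had 359.4, 313.7 and 419.6 TPM there and 518.1, 612.0 and 512.8 TPM in males, without overlap (−0.59 ± 0.14, adjusted p = 0.005709). The place of some of these genes among the members is weak. A single WT-sired 8-cell embryo held 75.2% of the summed TPM of ftn-2, and Y47D3A.13 was called in none of the stage tests.

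Higher in females were hmg-11, F59C12.4 and the linker histone gene hil-3 among others. hmg-11 had 29.02, 35.7 and 38.5 TPM in wt_F1 females and 16.6, 10.5 and 12.3 TPM in wt_F1 males, without overlap (1.34 ± 0.20, SE, limma adjusted p = 5.501e-04). It lies inside clec-140 on the same strand, so reads of both genes cannot be fully separated here either. For F59C12.4 the values were 59.7, 38.2 and 38.5 TPM in females and 22.4, 21.5 and 19.4 TPM in males (1.04 ± 0.20, adjusted p = 0.002091). The calls of hmg-11, F59C12.4, hil-3 and linc-6 were lost under median-of-ratios scaling, where the differences were 0.48, 0.17, 0.26 and 1.598. That of linc-6 was also lost without wt_F1 male 3 (adjusted p = 0.0539).

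Between rnst-2-sired and wt_F1 offspring only linc-6 was called among the members. Of 32 members tested in females, 1 was higher and 0 lower (4.71% and 0.168% of all entries). linc-6 had 31.5, 26.8 and 45.4 TPM in rnst-2-sired females and 15.7, 10.3 and 8.79 TPM in wt_F1 females, without overlap (1.50 ± 0.26, SE, limma adjusted p = 0.04816). The call was lost with any single female left out (adjusted p 0.0691 to 0.139). With the replicate number as a block, 2 members were called higher (14.2% of all entries) and linc-6 kept its call (adjusted p = 0.0363). The highest library, rnst-2-sired female 3, stood apart with 26919 TPM of rRNA, against 204.7 to 604.3 TPM in wt_F1 females. That library also held 2576 TPM of F30H5.4, while the other rnst-2-sired females had 153.5 and 93.6 TPM and the wt_F1 females 0, 126.7 and 0 TPM, so the groups overlapped. In males 0 of 27 members were called (0.0707% of all entries in either direction), with 3 at an unadjusted p under 0.05.

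Small RNA reads were counted by the authors on the strand of a gene as mRNA fragments and on the other strand as endo-siRNAs, the short antisense RNAs that worm RNA-dependent RNA polymerases make on transcripts. A pair of noncoding members had reads that were called higher in rnst-2 mutant males of both alleles. One was F10D2.13, an snRNA (chrV:7142717-7142858) that lies inside the gene ugt-37 on the same strand, with the ncRNA F10D2.15 over it on the other. Its fragments had 39.3, 15.2, 14.4, 14.4, 9.57 and 9.15 rpm (reads per 1000000) in deletion homozygotes, against 2.60, 5.64, 8.21, 2.41 and 0.185 rpm in deletion heterozygotes. Every homozygote exceeded every heterozygote (2.13 ± 0.60 on the log2 scale, SE, edgeR adjusted p = 0.03065). Among fragments, this was the only member called higher of 16 tested, and 0 were lower (4.6% and 0.804% of all fragments). The count called higher is near the share over all fragments, so nothing is read from it for the members.

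In catalytic males F10D2.13 fragments had 8.01, 13.9, 11.59, 28.1, 10.6 and 23.3 rpm in homozygotes and 2.48, 4.22, 2.87, 12.3 and 2.07 rpm in heterozygotes, which overlapped through heterozygote 4 (1.75 ± 0.53, edgeR adjusted p = 0.04231). Of the 17 members tested there as fragments, 1 was higher and 1 lower (3.52% and 0.804% of all fragments). The count called higher is again near the share over all fragments. The F10D2.13 calls were near the threshold. In deletion males the call was lost without heterozygote 1, 2 or 4 or homozygote 1 (adjusted p 0.0534 to 0.0857), and in catalytic males without any 1 of 9 of the 11 libraries, the exceptions being homozygote 1 and heterozygote 4 (adjusted p 0.0552 to 0.116), and with the library size that leaves out rRNA (0.0755).

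The other was C15F1.14, a 171-base ncRNA (chrII:6968392-6968562, plus strand), through its antisense reads. An snRNA gene, sup-39 (chrII:6968394-6968558), lies on the minus strand within it, so that the reads counted as endo-siRNAs of C15F1.14 run in the direction of that snRNA, and pieces of the snRNA and siRNAs cannot be told apart by this count. In catalytic homozygotes these reads had 34.1, 58.2, 24.1, 48.8, 34.7 and 54.1 rpm, against 1.37, 3.48, 2.87, 15.3 and 7.88 rpm in catalytic heterozygotes. The groups did not overlap (2.80 ± 0.52, SE, edgeR adjusted p = 0.006689), and the call held in each alternative run (adjusted p up to 0.0244). It was the only one of 58 endo-siRNA members called higher, and 0 were lower (0.128% and 17.3% of all endo-siRNAs). Deletion homozygotes had 46.2, 22.3, 27.4, 15.0, 0.784 and 42.6 rpm and deletion heterozygotes 4.40, 1.82, 8.63, 3.82 and 3.32 rpm, with homozygote 5 below all heterozygotes (2.54 ± 0.67, adjusted p = 0.02336; the call was lost without homozygote 1 or heterozygote 2, 4 or 5, adjusted p 0.0547 to 0.0611).

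Among the other endo-siRNA members of deletion males, 4 of 51 were lower beside the 1 higher (18.1% and 0.12% of all endo-siRNAs), and these 4 calls depended on the library size. F59C12.4 had 1633, 1784, 1817, 2236, 2830 and 1926 rpm of endo-siRNAs in homozygotes and 3167, 2811, 2698, 4223 and 4393 rpm in heterozygotes, which overlapped through homozygote 5 (−0.76 ± 0.19, SE, edgeR adjusted p = 0.01695). Its difference was −0.49 in reads other than rRNA, −0.36 under TMM scaling and −0.34 with DESeq2, none of which passed. The call was also lost without heterozygote 5 (adjusted p = 0.0511). H37A05.4 (−0.73), hil-3 (−0.58) and E01G4.7 (−0.44) were also lower. The 3 calls were lost without rRNA in the library size, under TMM scaling, with DESeq2 and without a filter, and the difference of E01G4.7 turned sign with DESeq2 (0.0051). The hil-3 call was also lost without any library but homozygotes 3 and 5 (adjusted p 0.0546 to 0.0966) and that of E01G4.7 without any but homozygotes 1 and 5 (0.0549 to 0.122). In catalytic males F59C12.4 was lower as sense fragments, with 2.37, 2.45, 1.01, 3.40, 2.12 and 3.06 rpm in homozygotes and 4.28, 8.60, 5.84, 40.2 and 5.60 rpm in heterozygotes. The groups did not overlap (−2.42 ± 0.62, adjusted p = 0.02212), heterozygote 4 was far above the rest, and the call was lost once rRNA was left out of the library size, under TMM scaling, with the replicate block (adjusted p = 0.0973) and without homozygote 2 or 3 (adjusted p 0.0571 and 0.0572).

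In deletion females 0 of 31 members were called as fragments and 0 of 93 as endo-siRNAs (0.0218% of all fragments higher and 0.0% lower, 0.0202% and 0.0101% of all endo-siRNAs), with 1 fragment at an unadjusted p under 0.05 by edgeR and 0 called by DESeq2. F10D2.13 fragments had 6.82, 4.57, 3.97 and 2.91 rpm in homozygous females and 5.96, 4.13, 4.68 and 10.3 rpm in heterozygous females, which overlapped (−0.44 ± 0.35, edgeR adjusted p = 0.9999). Antisense reads of C15F1.14 had 25.8, 11.98, 6.05 and 16.8 rpm in homozygous and 11.4, 20.2, 5.55 and 60.9 rpm in heterozygous females (−0.69 ± 0.60, adjusted p = 0.9999). Whether the sexes differ in their response to the deletion was not tested.

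In sperm against whole males the noncoding members led as fragments. Of 35 tested, 16 were higher and 4 lower in WT sperm (64.4% and 5.59% of all fragments), with a median difference of 0.73 against 1.79 over all fragments. mrpr-1, the RNA of RNase MRP, had 499.9, 442.9, 687.0 and 444.2 rpm in WT sperm and 84.0, 96.3, 104.6 and 85.97 rpm in WT males, without overlap (2.48 ± 0.17, SE, edgeR adjusted p = 6.223e-07). F30H5.4 had 52.3, 49.7, 36.0 and 45.9 rpm in sperm and 8.24, 8.04, 5.04 and 7.21 rpm in males (2.69 ± 0.21, adjusted p = 1.155e-06). The small nuclear SmY RNA smy-8 had 25.1, 19.6, 22.9 and 31.6 rpm in sperm and 3.23, 1.67, 2.05 and 4.22 rpm in males (3.15 ± 0.29, adjusted p = 2.968e-06). F10D2.13 fragments were higher too, with 22.9, 71.7, 43.8 and 45.8 rpm in sperm and 3.30, 5.63, 5.29 and 2.47 rpm in males (3.46 ± 0.36, adjusted p = 5.719e-06). The Y RNA yrn-1 differed less, by 0.84 ± 0.19 (adjusted p = 0.001625).

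**Figure D5:**
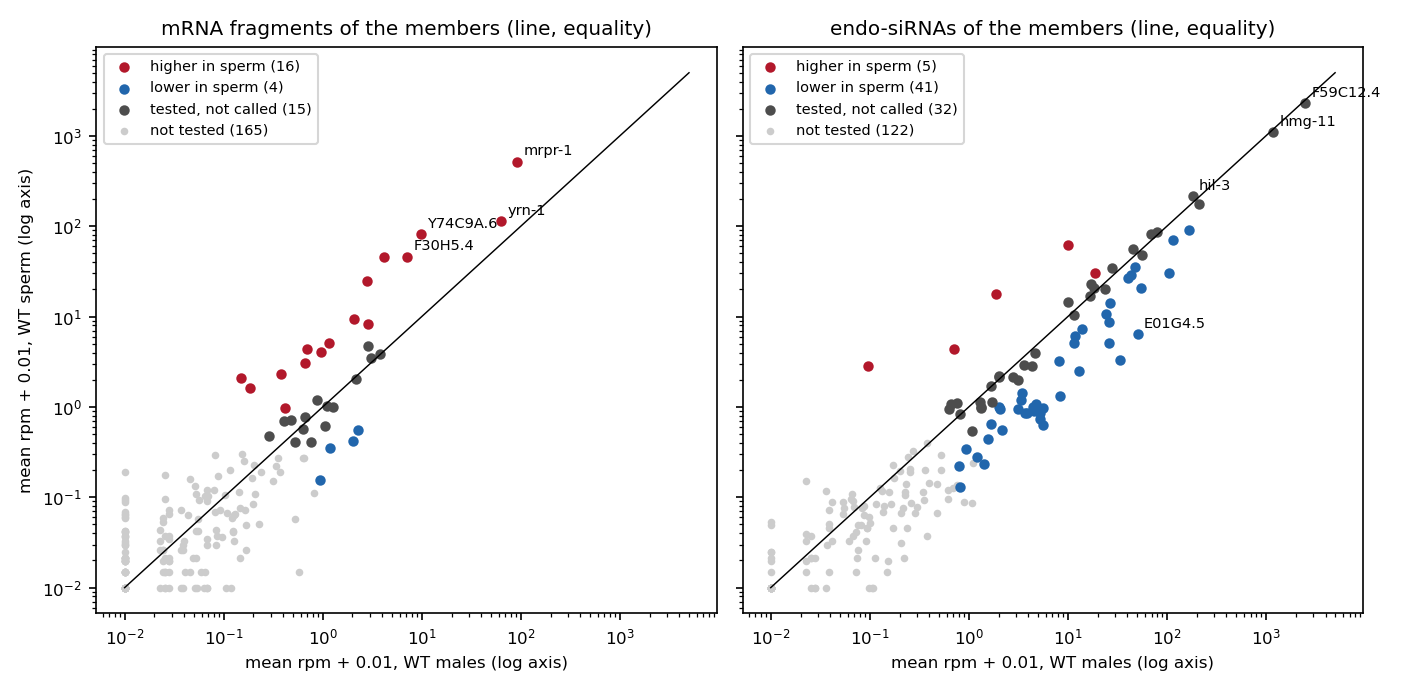
Mean small RNA level of each member in WT sperm (vertical axis) and WT males (horizontal axis), as rpm + 0.01 on log axes, for mRNA fragments and endo-siRNAs (n = 4 each). As fragments mrpr-1, F30H5.4 and smy-8 lie above the line of equality, and as endo-siRNAs F59C12.4, hmg-11 and hil-3 lie on it at the top.

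As endo-siRNAs, 5 of 78 members were higher and 41 lower in sperm (2.41% and 58.6% of all endo-siRNAs), with a median of −0.69 against −0.87. The 3 with the most reads were not called. F59C12.4 had 2544, 1889, 2385 and 2429 rpm in WT sperm and 2674, 2153, 2465 and 2668 rpm in WT males (−0.11 ± 0.13, SE, edgeR adjusted p = 0.4783), hmg-11 differed by −0.09 (adjusted p = 0.5849) and hil-3 by 0.25 (adjusted p = 0.1122). The gene with the smallest adjusted p was E01G4.5, which encodes a C2H2 zinc-finger protein, with 6.12, 6.22, 5.10 and 8.20 rpm in sperm and 52.8, 46.1, 55.8 and 48.2 rpm in males, without overlap (−2.99 ± 0.19, adjusted p = 5.076e-07). Its sense fragments were higher in sperm (2.57, adjusted p = 0.001786). Of the 5 members higher in sperm by antisense reads, 4 lie opposite a gene for an snRNA or snoRNA: C15F1.14 (2.62 ± 0.43, adjusted p = 1.619e-04), T08G5.18 opposite T08G5.11 (3.24 ± 0.34, adjusted p = 6.016e-06), F08H9.14 opposite F08H9.10 (2.65 ± 0.49, adjusted p = 4.135e-04) and Y24D9A.11 opposite the snoRNA Y24D9A.10, itself a member (4.90 ± 0.60). The other was Y47D3A.13 (0.69 ± 0.19). T08G5.18, F08H9.14 and Y24D9A.11 were named after their values and positions had been seen. Over both kinds of read, 21 members were higher and 45 lower (32.1% and 33.1% of all RNAs). Once rRNA was taken out of the library size 30 were higher and 39 lower (36.6% and 26.3% of all), under TMM scaling 27 and 41 (36.1% and 27.8%) and by DESeq2 28 and 42 (36.4% and 29.4%).

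Sperm of catalytic homozygotes was compared with the same 4 WT sperm libraries, here as rpm of the reads other than rRNA. Of 28 members tested as fragments, 13 were higher and 5 lower (60.9% and 7.69% of all fragments). Of 70 tested as endo-siRNAs, 9 were higher and 20 lower (7.55% and 38.7% of all endo-siRNAs). F10D2.13 fragments had 157.8, 155.2, 125.3 and 136.9 rpm in mutant sperm and 29.99, 93.6, 58.1 and 54.5 rpm in WT sperm, without overlap (1.28 ± 0.28, SE, edgeR adjusted p = 0.002149). Antisense reads of C15F1.14 had 272.2, 258.2, 224.5 and 221.7 rpm in mutant sperm and 26.3, 129.6, 64.7 and 94.2 rpm in WT sperm (1.63 ± 0.36, adjusted p = 0.002486), and F08H9.14 differed by 1.94 ± 0.40 (adjusted p = 0.001711). T08G5.18 had 22.6, 12.1, 21.4 and 18.2 rpm of antisense reads in mutant sperm and 11.2, 21.7, 25.6 and 31.4 rpm in WT sperm, which overlapped (−0.28 ± 0.29, adjusted p = 0.4332).

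F30H5.4 fragments had 209.6, 285.5, 222.2 and 152.8 rpm in catalytic sperm and 68.6, 64.9, 47.7 and 54.6 rpm in WT sperm (1.88 ± 0.21, SE, edgeR). mrpr-1 fragments, by contrast, differed by −0.26 (adjusted p = 0.2631). F59C12.4 endo-siRNAs had 1118, 780.9, 720.0 and 898.6 rpm in catalytic sperm and 3337, 2467, 3159 and 2887 rpm in WT sperm, without overlap (−1.75 ± 0.19). Depth and scale went with genotype here. The mutant libraries held 3879265 to 5706814 reads without rRNA and the WT libraries 16803090 to 38651137, and the labels do not say whether they were prepared together. With rRNA reads in the library size 12 members were higher and 69 lower (6.79% and 57.7% of all RNAs), in place of 22 and 25 (32.1% and 23.3% of all), and the part of depth in these differences was not tested.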

How the data were processed

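Single-embryo and adult mRNA-seq tables were deposited as a score, the authors' RSEM TPM plus 1 (STAR alignment to WS245); 1 was subtracted from each value here. Depth is not kept in TPM, and its precision is unknown. Small RNA tables were deposited as raw counts that the authors made with Trimmomatic, Bowtie2 (rRNA, miRNA, tRNA and piRNA in turn), STAR and featureCounts. Versions are not given in the sources used here. Library totals were 13949314 to 51191372 counts in WT sperm and males and 4976236 to 14836506 in mutant males, and 7943468 to 21157298 without rRNA in females. p-values cover the spread between libraries only.

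TPM were tested by limma 3.58.1 (lmFit, eBayes with trend) on log2(TPM + 1) over entries with a mean of at least 5 TPM over the libraries in the fit, and counts by the quasi-likelihood test of edgeR 4.0.16 over RNAs that reached 10 counts in at least as many libraries as the smaller of both groups had, on R 4.3.3, with Benjamini-Hochberg adjustment over all entries tested. Library size was the sum of all counts, or without rRNA for sperm of catalytic homozygotes and for females. Fold changes on the TPM + 1 scale understate the change of low genes. Both fits were tested on simulated data. Alternatives were a pseudocount of 0.1, a minimum of 1 TPM or none, TPM without rRNA, median-of-ratios scaling, the cutoffs of the study's methods in t-tests on log2(TPM + 1) (the rule of the methods), TMM factors, DESeq2 1.42.0, other library sizes, single replicates or doubted embryos left out and a replicate block. After seeing the data, leaving out embryos with at least 100 TPM of stage markers or 5000 TPM of the members at the 2-cell stage was added, with GFP 8-cell embryo 11.

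Members, lists and tests were chosen with earlier results of these data known. Genes were named as the 10 highest by the rule, up to 8 members per list, up to 5 per direction with the smallest adjusted p in each comparison the rule did not use, the ranks at its edge, the 3 with most reads per kind of small RNA in sperm and the 5 highest in adult females and males; others are named as chosen after their values were seen. Same-numbered replicates counted as paired where every pair's deviations correlated above 0.1, which held in F1 females (0.104 to 0.252, 3 pairs) and deletion males (0.178 to 0.443, 5 pairs). Positions and upstream windows came from the WBcel235 annotation and RefSeq assembly. 1 unnamed column of values, the males with purified sperm added and piRNA lines of females were not used.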

Additional observations from a re-analysis of the deposited data

Results flagged for a closer look

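In males carrying the catalytic mutation over the balancer, the summed endo-siRNA reads of the members were 3709 rpm in replicate 5, while the other 4 replicates held 6147 to 6626 rpm (n = 5). The gap to the nearest replicate, as a share of the range, was above the critical value of Dixon's test. This was 1 of 18 groups and sums tested, and chance alone gives such a gap in about 1 of 20.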

How the results depend on the processing

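The counts of members higher at the 8-cell stage kept their direction under every alternative run and stayed within 1.5 times the values given. In 8-cell embryos sired by rnst-2 mutant and WT fathers, the 1 lower member became 0 with a pseudocount of 0.1, without a filter and without doubted embryos. The count was 10 by the rule of the methods and 12 with a replicate block, all lower. Over all 6958 entries, 51 were lower by that rule and 40 with the block, which joins embryos that share only a number. The WT-sired values chose the members, so nothing is read from these counts. Between the injections at the 2-cell stage the rule of the methods called 6. In F1 females the count of 1 became 0 with a minimum of 1 TPM, without a filter, with median-of-ratios scaling and with any replicate left out (0 to 0), and 2 with the replicate block, where the numbers pair the samples. F1 males gave 0 to 2 with a replicate left out, the 2 being without wt_F1 male 2. wt_F1 females against males gave 37 with a minimum of 1 TPM (24 higher, 13 lower), 68 without a filter (55 and 13), 12 by the rule of the methods (2 and 10) and 17 to 19 with a replicate left out.

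For small RNAs, the 6 calls in deletion males became 2 with rRNA left out of the library size, 2 with TMM factors, 2 with DESeq2, 3 without a filter and 2 to 7 with a replicate left out (2 without heterozygote 2 or 5 and 3 without heterozygote 1 or 4), and the replicate block, where the numbers pair, gave 2 higher and 7 lower. The 3 calls in catalytic males became 1 with rRNA left out, 8 without a filter and 1 to 4 with a replicate left out, where 1 was reached without homozygote 2 or 3. Catalytic sperm gave 81 calls with rRNA in the library size and 41 to 54 with a replicate left out, WT sperm against males 65 to 73, and deletion females 0 to 0. E01G4.7 endo-siRNAs in deletion males changed sign with DESeq2 (0.0051, adjusted p = 0.996). Of 966 settings over 87 single-gene results, 884 kept their call, 81 lost it and 1 changed sign. Other blocks, in groups that share only a number, moved no further count by over 1.5 times. TPM keeps no depth, and members at 0 in most embryos are at the limit of these libraries. The cause of the moved counts was not tested.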
